A study of Mus musculus with 6 samples.

Results

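Gxylt1, Yaf2, Zcrb1, Pphln1 and Prickle1 are 5 neighbouring protein-coding genes of mouse chromosome 15, between positions 93239742 and 93595891 of the mm10 genome (GRCm38). They were chosen by measured values: an earlier analysis of the same libraries had found a stretch in which neighbouring genes had, as a running median, more tags in mouse oligodendrocyte progenitor cells (mOPCs) than in mouse embryonic stem cells (mESCs). Differences between the cell types at these 5 genes are therefore a description and carry no test. The 5 genes stand among 55450 genes of the GENCODE vM21 annotation, of which 21951 are protein-coding, and 16 other protein-coding genes overlap the window from 91 to 96 Mb that was examined around them.

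In CAGE (cap analysis of gene expression) the capped 5′ end of an RNA is captured and read as a short tag, and the tags that begin at a base count the RNAs that began there. The data were 3 libraries of nuclear RNA from mESCs, the feeder-free line R08 kept in serum medium with leukemia inhibitory factor, and 3 from mOPCs, the line Oli-neu kept in medium with N2 supplement, T3, L-thyroxine, bFGF and PDGF-BB. No genotype change was given for either line, and each cell type is 1 line. Oli-neu is a progenitor line made with an activated neu oncogene, and such a line stands for the progenitors of the brain only as far as a cultured line can. The mESC libraries held between 16657021 and 37888141 tags, and the mOPC libraries between 21925299 and 40928704. The libraries of a cell type shared 1 library label that differed between the cell types, so preparation and cell type cannot be told apart. Nothing in the labels said whether the libraries came from separate cultures, and p-values then measure only the spread between libraries. In bulk RNA, fewer cells with a transcript and less transcript per cell cannot be told apart.

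The 5 genes have separate known roles. Gxylt1 encodes an enzyme that adds xylose to the O-glucose of Notch receptor repeats. Yaf2, a paralog of Rybp, encodes a subunit of noncanonical Polycomb repressive complex 1 (PRC1), which places ubiquitin on histone H2A. Zcrb1 encodes an RNA-binding protein of the U11/U12 particle, which recognises the 5′ splice site and branch site of minor (U12-type) introns. Pphln1 encodes periphilin, a subunit of the HUSH complex that silences transposable elements and other intronless genes. Prickle1 encodes a cytoplasmic protein of the planar cell polarity pathway, which orients cells in the plane of a tissue and works together with Vangl proteins against Frizzled and Dishevelled.

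The lines carried the markers of their labels. The summed level of 12 mESC markers lay between 4880 and 5350 CPM (tags per 1000000 tags of a library) in mESCs and between 41.3 and 46.1 in mOPCs, and all 12 were higher in every mESC library. Those of 10 progenitor markers lay between 16.0 and 17.3 in mESCs and between 2530 and 2680 in mOPCs, with 9 of 10 higher in every mOPC library and Nkx2-2 without a tag in mOPCs. Markers of mature oligodendrocytes (6 genes) summed to between 312 and 344 in mOPCs against at most 25.3 in mESCs, and those of astrocytes (4 genes) to between 82.7 and 94.8 against at most 50.7, with Aqp4 at 0 in mOPCs. Markers of neurons (5 genes) summed to between 234 and 281 in mOPCs and between 286 and 309 in mESCs, with Rbfox3, Snap25 and Stmn2 at 0 in mOPCs. Microglia markers (4 genes) stayed at or below 1.2 CPM in each library, and fibroblast markers (4 genes) at or below 12.3. The part of such cells in the values below was not tested.

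Within 500 bp of their annotated 5′ ends, on the strand of the gene, 4 of the 5 genes had more tags in every mOPC library than in any mESC library, and Pphln1 did not. The share of all genes with such a gap was not counted. By edgeR's test over all genes (adjusted p under 0.05), 42.1% of 18490 tested genes were higher and 48.9% lower in mOPCs. Since the 5 genes were chosen on this contrast, nothing is read from their count. A log2 ratio compares the mean of the mOPC libraries with that of the mESC libraries. Summed over the 5 genes, the mESC libraries had 260, 282 and 272 CPM and the mOPC libraries 923, 969 and 977, a log2 ratio of 1.82. Prickle1 made up 0.787% to 0.858% of this sum in mESCs and 42.6% to 46.8% in mOPCs. Without Prickle1, the sum was 269 ± 11.0 (SD, n = 3) in mESCs and 523 ± 5.95 (SD, n = 3) in mOPCs, a log2 ratio of 0.96. The difference was thus uneven along the 5 genes, with a log2 ratio above 7 at one end and near 0 at the fourth gene. Among the 18490 genes tested genome-wide, the share with a lower fitted ratio was 97.1% for Prickle1, 89.8% for Yaf2, 80.5% for Zcrb1, 64.5% for Gxylt1 and 51.5% for Pphln1.

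**Figure D1:**
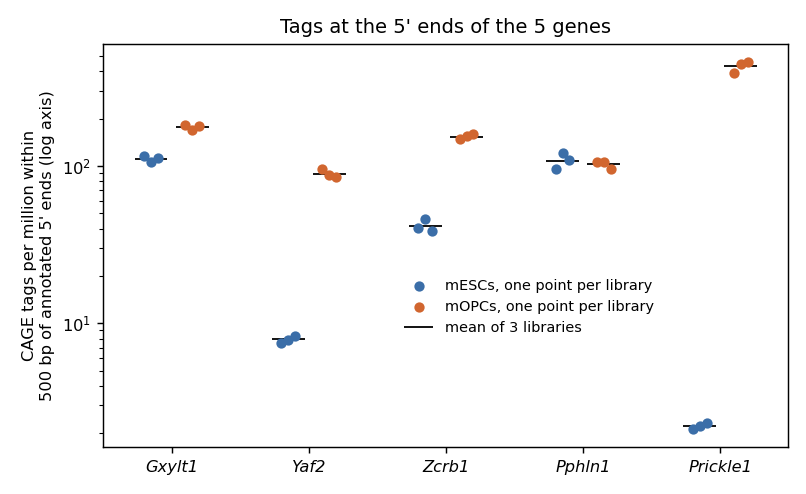
CAGE CPM within 500 bp of annotated 5′ ends (log axis) of the 5 genes in their order along the chromosome, with 1 point per library and a line at the mean of 3 libraries. The points of the cell types lie apart for Gxylt1, Yaf2, Zcrb1 and Prickle1 and overlap for Pphln1, and the gap is widest at Prickle1 (2.23 against 433 CPM).

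Gxylt1 (93239742 to 93275179, minus strand) and Pphln1 had the highest levels of the 5 in mESCs, with means of 111 ± 4.91 and 108 ± 12.7 CPM (SD, n = 3) that differed by less than the spread. The mESC libraries had 115, 106 and 113 CPM at Gxylt1 and the mOPC libraries 181, 171 and 179. The groups did not overlap, and the ratio of 1.59 was the smallest among the 4 genes whose groups lay apart. Its tags formed 1 cluster of start positions, with its strongest position at 93275164 in the pooled tags of either line, 3 bp upstream of an annotated 5′ end. That position took 32.9% of the cluster's tags in mESCs and 31.6% in mOPCs, and the middle 80% of tags took up 10 bp of mESC and 16 bp of mOPC sequence. The start of Gxylt1 was thus narrow in both lines and had the same strongest position.

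Its promoter is shown because the start zone is so narrow. The sequence is the RefSeq window of 250 bases before and 50 bases after the annotated start (GRCm38.p6, chr15:93275130-93275429, minus strand), with the 16 bases that held the middle 80% of mOPC tags in capitals.
Gxylt1: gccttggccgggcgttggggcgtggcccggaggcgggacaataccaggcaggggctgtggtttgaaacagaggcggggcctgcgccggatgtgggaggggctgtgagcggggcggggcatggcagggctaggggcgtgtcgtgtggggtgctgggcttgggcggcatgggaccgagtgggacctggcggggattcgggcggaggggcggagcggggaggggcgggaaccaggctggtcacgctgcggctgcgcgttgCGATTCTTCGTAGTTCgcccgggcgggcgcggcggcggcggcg
In this window 74.7% of bases were G or C, more than in 95.8% of all 32851 promoter windows of this length, whose median was 52.7%. The observed count of CG steps was 0.99 of that given by base composition, against a median of 0.384. The letters GGGCGG, the core of a GC box, occurred 6 times on the strand of the gene, and 35.7% of all windows held them at least once on either strand.

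Yaf2 (93284278 to 93336935, minus strand) had 7.5, 7.81 and 8.36 CPM in mESCs and 95.5, 87.8 and 85.8 in mOPCs. Every mOPC library was above every mESC library, at a ratio of 11.4. Its tags fell into a pair of clusters. The upstream cluster (93336598 to 93336997) had 5.62, 5.70 and 7.0 CPM in mESCs and 56.6, 53.5 and 51.5 in mOPCs. Its strongest mOPC position as deposited, 93336808, was the annotated 5′ end itself, while in mESCs the strongest was 93336833, 25 bp further upstream. The downstream cluster (93336200 to 93336564) peaked at 93336477 in the pooled tags of either line, 331 bp downstream of the nearest annotated 5′ end, in an intron of both annotated transcripts. That position was the strongest in 3 mOPC libraries but in only 1 mESC library. The downstream cluster had 1.85, 2.04 and 1.30 CPM in mESCs and 39.4, 34.8 and 34.5 in mOPCs. Of the tags of both clusters, the downstream one took 24.7%, 26.4% and 15.7% in mESCs and 41.1%, 39.4% and 40.1% in mOPCs. The Wilson 95% intervals were 20.1% to 30.1%, 19.5% to 34.6% and 10.8% to 22.3% in mESCs, from 129 to 283 tags per library, and between 37.5% and 43.2% throughout in mOPCs. The ratio of mOPCs to mESCs was thus 20.9 at the downstream cluster and 8.82 at the upstream one. RefSeq promoter windows were found for the 4 other genes.

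Zcrb1 (93386097 to 93398334, minus strand) and Pphln1 (93398350 to 93491510, plus strand) lie head to head, with annotated starts 16 bp apart. Zcrb1 had 40.3, 45.9 and 38.6 CPM in mESCs and 148, 156 and 159 in mOPCs, a ratio of 3.71. Pphln1 had 95.3, 121 and 109 in mESCs and 106, 106 and 95.9 in mOPCs, a ratio of 0.946 with overlapping groups. Its log2 ratio of -0.08 was smaller than the spread between libraries (0.19, SD) and turned to 0.05 when tags over the whole gene were counted. Zcrb1 thus had more tags in mOPCs while its partner, whose starts lie within the same short stretch, did not differ beyond the spread. Each Pphln1 tag was met by 0.422, 0.380 and 0.353 Zcrb1 tags in mESCs and by 1.40, 1.47 and 1.66 in mOPCs. This ratio is taken within a library and does not depend on how libraries were scaled.

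The strongest start positions of the pair were the same in both lines. The strongest Zcrb1 position was 93398309 and the strongest Pphln1 position 93398361 in all 6 libraries, which puts them 52 bp apart. The strongest Zcrb1 position had a mean of 6.41 CPM in mESCs and 15.9 in mOPCs, and the strongest Pphln1 position 21.4 and 25.5. For Zcrb1 the middle 80% of tags took up 45 bp (mESCs) and 48 bp (mOPCs), and for Pphln1 48 bp and 52 bp. Within Zcrb1 the weights of positions differed: the strongest took 15.9% of tags in mESCs and 10.4% in mOPCs, and the positions 71 to 69 bp before the strongest Pphln1 start went from a summed mean of 2.97 to 21.6 CPM, a ratio of 7.28 against 2.49 at the strongest position. Both starts were broader than that of Gxylt1.

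The stretch that separates the strongest starts is shown because it serves both directions (GRCm38.p6, chr15:93398214-93398513, plus strand). The 53 bases from the strongest Zcrb1 position to the strongest Pphln1 position, both included, are in capitals, and Zcrb1 is read to the left and Pphln1 to the right.
Zcrb1 and Pphln1: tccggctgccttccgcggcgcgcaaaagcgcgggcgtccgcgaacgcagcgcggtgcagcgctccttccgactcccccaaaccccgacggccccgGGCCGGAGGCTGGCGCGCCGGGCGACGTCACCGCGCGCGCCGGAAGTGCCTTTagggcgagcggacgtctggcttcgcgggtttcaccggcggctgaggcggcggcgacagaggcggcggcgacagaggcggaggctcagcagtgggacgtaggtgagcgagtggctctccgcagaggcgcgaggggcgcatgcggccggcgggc
G and C made up 76.0% of this window, more than in 96.9% of promoter windows, and 79.2% of the capitals. The letters CCGGAAGT, which contain the core bound by ETS factors, lay on the strand of Pphln1 13 bp before its strongest position, inside the capitals, and 3.89% of all promoter windows held them. The letters CGCATGCG, which are part of the recognition sequence of NRF1, lay 135 bp after that position, and 1.87% of windows held them. Neither overlapped the other.

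**Figure D2:**
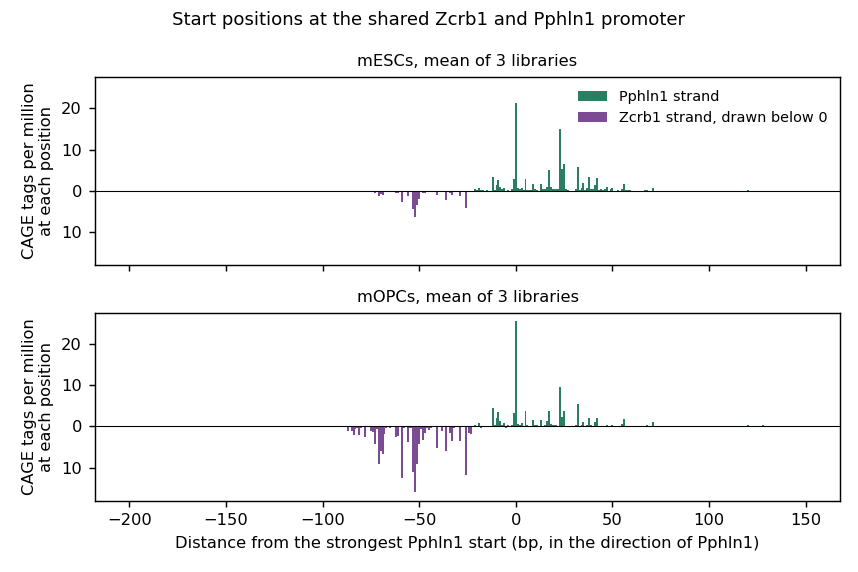
Mean CAGE CPM at each position around the starts of Pphln1 (drawn upward) and Zcrb1 (drawn downward), against the distance in bp from the strongest Pphln1 position, for 3 mESC libraries (top) and 3 mOPC libraries (bottom). The highest peak of each strand stands at the same position in both panels, and the downward bars are higher in mOPCs (15.9 against 6.41 at the strongest).

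Prickle1 (93499114 to 93595891, minus strand) had the largest difference of the 5. Its mESC libraries had 2.14, 2.22 and 2.33 CPM, from 37 to 81 tags each, and its mOPC libraries had 393, 448 and 457. The groups were far apart, at a ratio of 194 and a log2 ratio of 7.60. Counted over the whole gene, the log2 ratio was 6.87, and over positions with at least 2 tags in a library it was 8.30. Prickle1 was the weakest of the 5 in mESCs and the strongest in mOPCs.

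Its tags came mainly from a pair of clusters 76415 bp apart. The upstream cluster (93595543 to 93596108) lies at the start of the longer annotated transcript and had 1.5, 1.32 and 1.30 CPM in mESCs and 117, 138 and 144 in mOPCs. The downstream cluster (93518874 to 93520040) lies at the start of the shorter transcript, inside an intron of the longer one, and had 0.607, 0.901 and 1.03 in mESCs and 278, 312 and 317 in mOPCs. Its ratio was 357, against 96.6 at the upstream cluster. Of the tags of both, the downstream cluster took 28.8%, 40.5% and 44.2% in mESCs and 70.5%, 69.3% and 68.8% in mOPCs. The Wilson 95% intervals in mESCs were wide, from 20% to 39.5%, 26.3% to 56.5% and 30.4% to 58.9%, since they rest on 80, 37 and 43 tags. In mOPCs they lay between 68.2% and 71.4%, from at least 8658 tags. The leading start of Prickle1 was thus the downstream one in each mOPC library and the upstream one in each mESC library by share, although the intervals of 2 mESC libraries reached past an even split.

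Both Prickle1 promoters are shown because they share a gene and differ in base composition (GRCm38.p6, minus strand, chr15:93595853-93596152 and chr15:93519471-93519770). Capitals mark the part of the window inside the zone of the middle 80% of mOPC tags, 165 bp at the upstream cluster and 174 bp at the downstream one, each of which runs past the end of its window.
Prickle1 upstream: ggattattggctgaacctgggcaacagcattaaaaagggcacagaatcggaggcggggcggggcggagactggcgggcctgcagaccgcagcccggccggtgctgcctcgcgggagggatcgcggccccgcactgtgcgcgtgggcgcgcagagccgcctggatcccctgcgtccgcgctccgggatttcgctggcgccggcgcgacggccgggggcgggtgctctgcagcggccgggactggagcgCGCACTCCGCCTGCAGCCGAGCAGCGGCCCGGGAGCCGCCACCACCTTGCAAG
Prickle1 downstream: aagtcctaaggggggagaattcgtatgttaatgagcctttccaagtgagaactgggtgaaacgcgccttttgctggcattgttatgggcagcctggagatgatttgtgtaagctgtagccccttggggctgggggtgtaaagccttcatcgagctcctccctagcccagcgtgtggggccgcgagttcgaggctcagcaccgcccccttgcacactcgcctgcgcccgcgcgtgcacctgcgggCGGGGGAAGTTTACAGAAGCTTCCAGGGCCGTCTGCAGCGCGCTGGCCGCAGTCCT
The upstream window had 74.0% G and C and the downstream window 61.0%, more than in 95.2% and 73.1% of all promoter windows. The observed share of CG steps was 0.957 and 0.722 of that given by base composition. GGGCGG occurred 3 times on the strand of the gene in the upstream window, the first 2 sharing 1 base, and once on each strand in the downstream one. CCAAT, the core of a CCAAT box, occurred once in the upstream window, on the opposite strand, and in 37.4% of all windows. TATAAA, the core of a TATA box, was in none of the windows shown and in 13.6% of all windows. Of the other letters searched on both strands, none of AAGATGG (part of the YY1 site, in 6.34% of all windows), CACGTG (an E-box, in 7.15%), TGACGTCA (the cyclic AMP response element, in 1.79%) and TCTCGCGA (in 0.995%) was found in the windows shown. A match describes letters only, and no match says nothing about a factor.

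Deposited positions stood 1 base before the usual start. At 10227 strongest positions of promoter windows, each with at least 50 tags over the 6 libraries, 1.21% had a pyrimidine before a purine at the deposited base, against 88.4% at the next base downstream, alike on both strands. Read at the next base, both Prickle1 starts and those of Gxylt1 and Pphln1 fell on such a step, and that of Zcrb1 did not. All positions, distances and capitals given here are as deposited and do not include this shift.

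**Figure D3:**
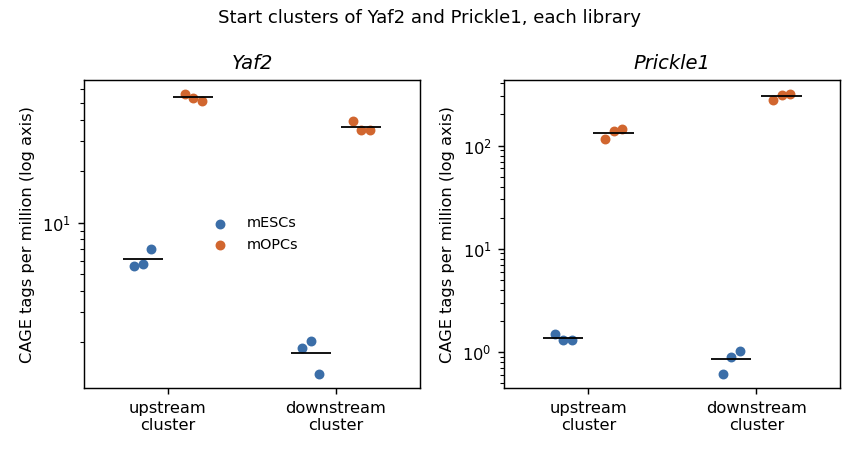
CAGE CPM (log axis) of the upstream and downstream start clusters of Yaf2 (left) and Prickle1 (right), with 1 point per library and a line at the mean of 3. Within Prickle1 the order of the clusters turns, from a mean of 1.38 upstream and 0.846 downstream in mESCs to 133 and 302 in mOPCs.

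Another 11 clusters of Prickle1 reached 1 CPM in at least 1 library, all of them inside the gene. None exceeded 2.42 CPM, and 10 reached 1 CPM only in mOPC libraries, which fixes their direction. The exception (93503403 to 93503503) lay in an exon of both transcripts near the 3′ part of the gene, with 0.713, 1.44 and 0.597 CPM in mESCs and 0.274, 0.381 and 0.269 in mOPCs. In mESCs this cluster was about as strong as the downstream promoter, whose mean was 0.846.

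Tags outside genes and opposite to genes were also more frequent in mOPCs over the span of the 5 genes. Tags outside genes on either strand and more than 500 bp from a 5′ end of their own strand numbered 46, 24 and 24 in mESCs and 315, 437 and 592 in mOPCs, or 1.21 to 1.44 and 14.4 to 15.2 CPM. Tags opposite to genes numbered 78, 43 and 35 against 735, 1113 and 1455, or 1.90 to 2.58 and 33.5 to 38.6 CPM. Neither class overlapped between the lines. The genome as a whole moved the same way to a lesser degree, with a log2 ratio of 0.07 for tags outside genes and 0.54 for tags opposite to genes. Relative to the genome, the log2 ratio over the span was 3.40 outside genes and 3.51 opposite to genes. Over all libraries, the share of tags near annotated 5′ ends was 87.6% to 88.1% in mESCs and 80.3% to 80.8% in mOPCs, and its part in these ratios beyond the scaling to the genome was not tested.

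These tags were spread over many positions. The strongest positions outside genes, 93275440 and 93337629, each held 3.35% of the mOPC tags of their class, and the strongest opposite position, 93519231, held 2.57%. Joined within 20 bp, they formed 9 clusters of at least 1 CPM in a library, all 9 higher in every mOPC library and 4 without a tag in mESCs. Since 8 of the 9 reached 1 CPM only in mOPC libraries, their direction follows largely from that filter. Of these clusters, 1 lay beside the start of Gxylt1, 3 beside that of Yaf2, and 5 within Prickle1 on the opposite strand. The largest (93519027 to 93519470, plus strand) began 292 bp from the downstream start of Prickle1 by its strongest position, and had 197, 316 and 431 tags in mOPCs and 2, 1 and 0 in mESCs. The only one more than 2000 bp from an annotated 5′ end (93530419 to 93530644) lay 11044 bp from it, with 58, 80 and 85 tags in mOPCs and none in mESCs, at least 60.8-fold more against a floor of 3 counts over the pooled mESC tags. Once tags within 2000 bp of any annotated 5′ end were left out, the log2 ratio relative to the genome was 5.17 outside genes, from 2 to 6 tags per mESC library, and 2.48 opposite to genes.

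The range of this excess was searched in bins of 100 kb from 91 to 96 Mb. A bin counted as in excess when it had at least 10 tags outside or opposite to genes, every mOPC library was above every mESC library, and the ratio relative to the genome was at least 2. The run that holds the 5 genes reached from the left edge of the window, 91 Mb, to 94 Mb, with 29 of 30 bins in excess. In the whole window 41 of 50 bins were in excess, and across the genome 36.1% of 20835 bins with at least 10 tags. Since the window was picked on the same contrast, nothing is read from these counts. The 4 bins over the span itself, from 93.2 to 93.6 Mb, had ratios of 7.79, 26.5, 6.49 and 17.4.

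The right end was set by few tags. The bin from 93.6 Mb had 9, 3 and 5 tags in mESCs and 15, 13 and 11 in mOPCs, a ratio of 1.72 with overlapping groups. The next 3 bins were in excess on few tags, from 21 to 71 in mOPCs and from 2 to 10 in mESCs, with a ratio of 4.78 from 93.7 Mb (95% exact interval 1.63 to 27.9) and of 4.93 from 93.8 Mb (1.73 to 62.1). The bins from 94 and 94.1 Mb had ratios of 0.587 and 0.479 and ended the run. When at least 30 tags were asked of a bin, the run ended at 93.6 Mb, just past Prickle1. Excess returned beyond these 2 bins, in 11 of the 13 bins from 94.2 to 95.5 Mb, where the bin from 94.4 Mb had a ratio of 18.6 and that from 94.6 Mb one of 23.8.

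The left end was not found within the window. Just inside the threshold were the bins from 92.4 Mb, with 10 mOPC tags, no mESC tag and a lower bound of 2.24, and from 93.0 Mb, with a ratio of 2.70. Just outside it was the bin from 94.7 Mb, with a ratio of 1.81. Without the limit of the window, a search added after the run was seen to reach its edge, the run began at 90.3 Mb. With bins of 50 kb it began at 92.55 Mb, and with tags opposite to genes alone it spanned 93.2 to 93.6 Mb. Of opposite tags, the bin from 93.1 Mb held none in any library. The bin from 93.0 Mb held 195 in mESCs and 10 in mOPCs, and both bins ended that run on the left. Further left, opposite tags had ratios of 172 from 92.0 Mb (95% exact interval 69.8 to 993) and 465 from 92.1 Mb (137 to 1950). Each of these rests on 3 mESC tags. Within that run, the bin from 93.4 Mb had a ratio of 1.47 with overlapping groups. The left bound thus depends on how bins are drawn and which tags are counted.

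**Figure D4:**
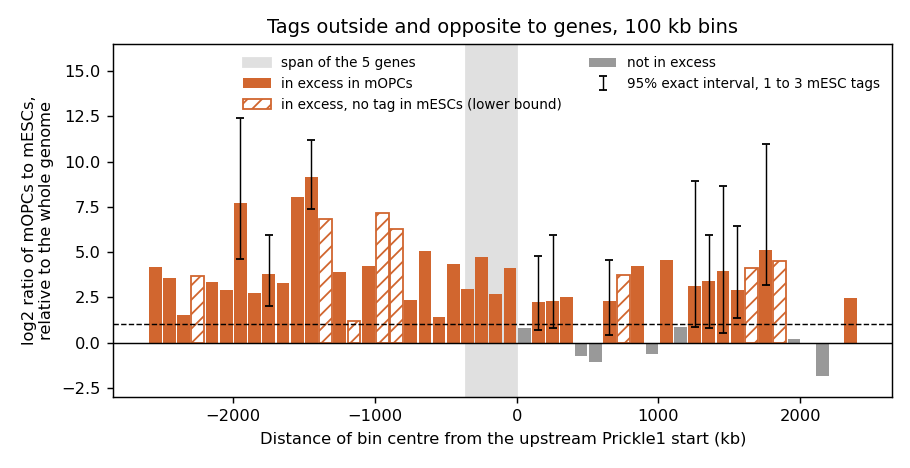
Log2 ratio of mOPCs to mESCs, relative to the whole genome, of tags outside and opposite to genes in 100 kb bins, against the distance of the bin centre from the upstream start of Prickle1 in kb. Grey shading marks the span of the 5 genes, hatched bars are lower bounds where mESCs had no tag, error bars are 95% exact intervals where mESCs had 1 to 3 tags, and the dashed line is the threshold of a ratio of 2. Bars above the line run unbroken from the left edge to Prickle1. Past a bar below the line, 3 more bars above it reach 94 Mb. After a gap, 11 of 13 bins from 94.2 to 95.5 Mb and the bin from 95.9 Mb are in excess.

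Most protein-coding neighbours had larger log2 ratios than the 5 genes, whose median in the fit over all genes was 1.87. Of the 16 in the window, 14 could be tested, and 11 were higher and 2 lower in mOPCs by edgeR's quasi-likelihood test over all genes (adjusted p under 0.05). Genome-wide, 42.1% of tested genes were called higher and 48.9% lower, so that a call as such was common between these lines. The median log2 ratio was 4.83 over the tested neighbours and -0.19 over all tested genes. The neighbours too lie in a window picked on this contrast, so the p-values given for them below describe the fit and are no support for an excess.

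To the left of Gxylt1, the nearest protein-coding gene, Pdzrn4, which encodes a PDZ domain ubiquitin ligase, had 0.287 ± 0.0147 (SD, n = 3) CPM in mESCs and 226 ± 12.6 (SD, n = 3) in mOPCs (log2 9.56, SE 0.155, edgeR adjusted p = 1.86e-49). Beyond it, Cntn1, a neural cell adhesion molecule of the immunoglobulin family, had 2 tags in each mESC library and 22893, 28586 and 36651 in mOPCs (log2 13.42, SE 0.186, edgeR adjusted p = 8.22e-52). Both values were above that of Prickle1 in the same fit (7.58). Further left, Lrrk2, Slc2a13, Abcd2 and Kif21a were higher in mOPCs, with log2 ratios of 5.50, 6.48, 7.31 and 4.23 in the edgeR fit. CN725425 went the other way, with 132, 88 and 88 tags in mESCs and none in mOPCs, at least 138-fold fewer. Smgc had no tag near its annotated 5′ ends in any library.

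To the right of Prickle1, the next protein-coding gene, Adamts20, a secreted metalloprotease, had 5.73 ± 0.592 (SD, n = 3) CPM in mESCs and 193 ± 17.2 (SD, n = 3) in mOPCs (log2 5.02, SE 0.11, edgeR adjusted p = 2.28e-43). Pus7l and Irak4, which lie head to head like Zcrb1 and Pphln1, had edgeR log2 ratios of 1.89 and 4.63. Twf1, an actin-binding protein, had 164 ± 2.31 (SD, n = 3) in mESCs and 149 ± 7.45 (SD, n = 3) in mOPCs (log2 -0.16, edgeR adjusted p = 0.0529). Nell2 and Ano6 were higher in mOPCs, with log2 ratios of 8.27 and 1.99. Dbx2, not tested, had 10, 6 and 0 tags in mESCs and 0, 0 and 1 in mOPCs. Genes with a ratio near 1 thus lay within the run and beyond it, next to genes with large ratios.

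Tmem117 depended on where tags were counted. At its annotated 5′ ends it had 42, 13 and 19 tags in mESCs and none in mOPCs, at least 29.8-fold fewer in mOPCs, and edgeR called it lower (adjusted p = 1.62e-13). Over the whole gene, it had 1.21, 0.841 and 1.52 CPM in mESCs and 36.3, 38.2 and 34.3 in mOPCs. A cluster inside the gene (94659288 to 94659491), 30147 bp after its first annotated start, had 137, 181 and 213 tags in mOPCs and none in mESCs. Most mOPC tags of the gene lay outside this cluster. The bin from 94.6 Mb, which holds it, had 612, 857 and 1022 mOPC tags inside genes.

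**Figure D5:**
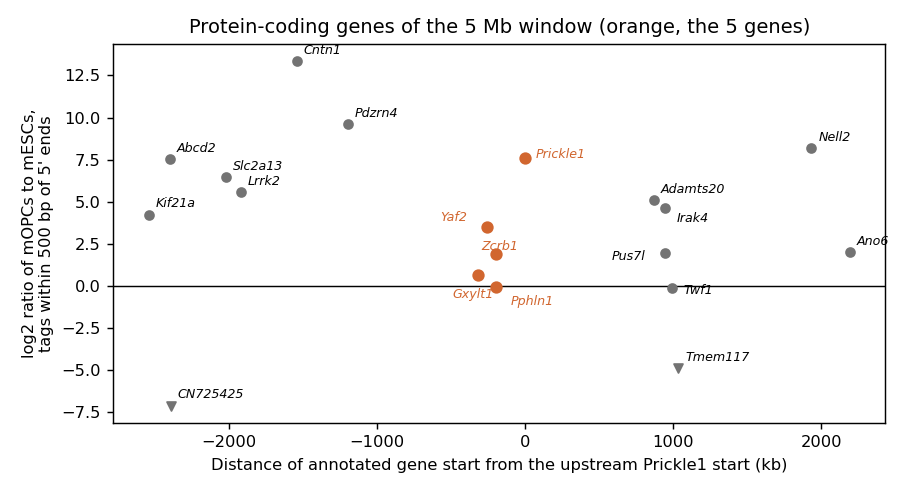
Log2 ratio of mOPCs to mESCs of tags within 500 bp of annotated 5′ ends, against the distance of the annotated gene start from the upstream start of Prickle1 in kb, for the protein-coding genes with tags in the window except Dbx2, which had 1 mOPC tag. Orange points are the 5 genes, grey points are neighbours, and downward triangles are bounds for genes without a tag in mOPCs. The orange points range from -0.08 at Pphln1 to 7.60 at Prickle1, and most grey points lie above 0.

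The partners of the 5 genes in their pathways did not move as lists in 1 direction. Values are from the edgeR fit, with lists drawn up when earlier results of these data were known, and the median over all tested genes was -0.19, with 42.1% called higher and 48.9% lower. Among 9 other tested genes of the enzymes that place sugars on Notch, 4 were higher and 4 lower in mOPCs (median log2 0.01). Eogt, which adds N-acetylglucosamine to the same repeats, and Lfng, a Fringe enzyme that extends O-fucose, were lower (log2 -5.91 and -2.91). Xxylt1, which adds the xylose after that of Gxylt1, fell from 49.3 ± 1.10 (SD, n = 3) to 15.3 ± 0.891 (SD, n = 3) CPM (log2 -1.71, edgeR adjusted p = 3.56e-24). Pofut1, which adds O-fucose, was higher (log2 1.66). Gxylt2, the paralog of Gxylt1, was too weak to be tested, with means of 0.355 in mESCs and 0.0152 in mOPCs.

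All 25 other PRC1 genes were called, 15 higher and 10 lower (median log2 0.75), where 42.1% of all tested genes were called higher and 48.9% lower. Rybp, the paralog of Yaf2, fell from 8.88 ± 1.06 (SD, n = 3) to 4.18 ± 0.632 (SD, n = 3) CPM (log2 -1.11, edgeR adjusted p = 3.5e-10). Tags at Yaf2 starts were about as frequent as at Rybp starts in mESCs, with means of 7.89 and 8.88, and 89.7 against 4.18 in mOPCs. CAGE counts starts, so the comparison does not depend on gene length. Rybp was named after its values were seen. Cbx8, a chromobox subunit of canonical PRC1, was higher (log2 5.38), as was Phc2 (log2 2.73), while its paralog Phc1 was lower (log2 -5.05).

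Among 11 other genes of the minor spliceosome, 3 were higher and 5 lower (median log2 0.13). Snrnp35 and Armc7 were higher (log2 1.96 and 1.24), and Snrnp48, a U11 protein, and Zrsr2, which recognises the 3′ splice site of minor introns, were lower (log2 -1.75 and -1.38). Among 7 other genes of HUSH and its partners, 2 were higher and 3 lower (median log2 0.11). Trim28, the corepressor of KRAB zinc finger proteins, and Mphosph8, the chromodomain subunit of HUSH, were lower (log2 -2.90 and -1.75), as was Fam208a, which encodes the HUSH subunit TASOR (log2 -0.65), and Morc2a was higher (log2 1.01).

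Among 22 other planar cell polarity genes, 10 were higher and 10 lower (median log2 -0.11). Prickle2, a paralog of Prickle1, rose from 11.3 ± 0.965 (SD, n = 3) to 91.3 ± 5.21 (SD, n = 3) CPM (log2 3.00, edgeR adjusted p = 8.37e-35). Celsr2, an atypical cadherin of the pathway, and Dvl1, a Dishevelled protein, were higher (log2 3.52 and 2.50). The other paralogs, named after their values were seen, were Prickle3, which was lower (6.80 ± 0.79 CPM in mESCs and 1 tag over the 3 mOPC libraries, SD, n = 3), and Prickle4, which was higher (log2 0.51). Genes of the list with means below 10 CPM in both lines, also named after their values were seen, included larger changes. Fzd6, a Frizzled receptor, had 293, 124 and 124 tags in mESCs and none in mOPCs, and Celsr1 had 382, 144 and 204 against 0, 2 and 0. Celsr3, also below this level and named in the same way, was lower (log2 -2.27). Rest, a repressor of neuronal genes whose nuclear transport involves Prickle1, was lower (log2 -2.35).

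The genes most like each of the 5 were sought by the distance between log2(CPM + 1) profiles over the 6 libraries. Each profile was centred on its own mean, and 14582 genes outside the window were searched. Such a profile holds mainly the difference between the lines, the contrast on which the 5 genes were chosen. Nearness thus means a similar difference between the lines only, and shared regulation was not tested. Nearest to Gxylt1 were Zfp275 and Agfg2 (distances of 0.0517 and 0.0537), to Yaf2 2010111I01Rik and Rgl1 (0.0976 and 0.109), to Zcrb1 Hs6st2 and Rhobtb3 (0.0407 and 0.0787) and to Pphln1 Ctps2 and Kpna1 (0.0514 and 0.084). Nearest to Prickle1 were 2610316D01Rik and Gpr17 (0.173 and 0.192), of which Gpr17, a receptor gene of differentiating progenitors, had no tag in mESCs and 124.5 ± 6.49 (SD, n = 3) CPM in mOPCs.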

How the data were processed

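CAGE libraries of nuclear RNA were compared between R08 mESCs (3 libraries) and Oli-neu mOPCs (3 libraries). The deposited values are counts: the authors aligned tags to mm10 and counted them, without normalization, by the position and strand of the 5′ end. The submitters' processing notes name CASAVA 1.8 and BWA 0.5.9, while the methods of the study name bowtie for the alignment of CAGE tags, and which of these made the files was not settled. Tags carry no molecular identifiers, so intervals and floors cover counting error only.

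Here, tags were summed within 500 bp of GENCODE vM21 transcript 5′ ends and scaled to the library total. Other tags were classed as inside genes, opposite to genes or outside genes, in 100 kb bins. All 18490 genes passing edgeR's filterByExpr were fitted with edgeR 4.0.16 (TMM, robust quasi-likelihood test, Benjamini-Hochberg adjusted p) in R 4.3.3, with DESeq2 1.42.0 as alternative. On simulated counts for these 18490 genes with 200 changes of 2 on the log2 scale, 192 were recovered, and 13 of 205 calls were false. The simulation gave all genes the same dispersion and changed few of them, while in the data most tested genes were called. Its rates need not hold for the data. A group at 0 was set to a floor of 3 counts over its pooled tags, 72972385 in mESCs and 91692553 in mOPCs. Python 3.11.15, numpy 2.4.6, pandas 2.3.3, scipy 1.17.1 and matplotlib 3.10.9 were used. For 3 libraries against 3, exact permutation tests allow no p below 0.1, and none is given. Pairs of libraries of a line differed by 4.66 to 11.7 times the counting noise (chi-square per gene), so each counted as 1 sample.

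The 5 genes, the lists and the window were chosen with earlier results of these data known. Named genes were the 5 genes, the protein-coding genes of the window, up to 4 called genes per list with the largest change and at least 10 CPM in the higher line, and the 2 nearest profiles per gene. Of the list genes, 1 is not reported here. Paralogs and other list genes outside this rule were named after their values were seen. Alternatives were other windows, scalings, filters, tools and bin settings, a replicate block, and each library left out in turn.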

Additional observations from a re-analysis of the deposited data

How the results depend on the processing

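The summed log2 ratio of the 5 genes (1.82) moved beyond the spread between libraries in 1 of 12 alternatives, to 1.61 with windows of 100 bp, and lay between 1.61 and 1.88 in all. Prickle1 (7.60) went to 6.87 with gene-body tags and 8.30 with positions of at least 2 tags. Yaf2 (3.51) went to 3.14 with windows of 100 bp, 3.85 with gene-body tags and 3.72 with positions of at least 2 tags. Gxylt1 and Zcrb1 stayed within the spread in all 12. Pphln1 lay between -0.17 and 0.05 and changed sign with gene-body tags and without mESC replicate 2, staying within the spread in all 12. Relative to the genome, tags outside genes (3.40) went to 5.17, and tags opposite to genes (3.51) to 2.48, without tags within 2000 bp of annotated 5′ ends, and their other 9 alternatives stayed within the spread. The start of the run moved from 91 Mb to 92.55 Mb with bins of 50 kb or bins shifted by 50 kb, 92.7 Mb with tags outside genes alone, 93.2 Mb with tags opposite to genes alone and 90.3 Mb with no window limit. Its end moved from 94 Mb to 93.6 Mb with bins of 50 kb, tags opposite to genes alone or at least 30 tags, and to 93.95 Mb with shifted bins. No library left out moved either bound. The neighbours called lower (2) became 4 with DESeq2, and the cause was not tested. Same-numbered libraries of the lines correlated in their deviations by 0.02, 0.11 and 0.02. The value of replicate 2 lay above those of its pairs with other numbers (-0.136 to 0.03), and those of replicates 1 and 3 lay within. Whether the numbers pair the libraries cannot be told from so few. With a replicate block, 11 neighbours were called higher and 3 lower, and 7794 and 9039 genes genome-wide against 7788 and 9044 without it. Depth limits the mESC values of Prickle1 and of the bins, several of which rest on fewer than 10 tags.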

Other observations

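Other genes of the window, named after their values were seen, went against the excess in mOPCs. Gm30085 (93001824 to 93007017), to the left of Gxylt1, had 22.9, 23.4 and 22.1 CPM in mESCs and 0.593, 0.797 and 0.489 in mOPCs (log2 -5.23, edgeR adjusted p = 4.98e-35). It lies within the run of bins in excess for mOPCs, in the bin from 93.0 Mb, which had 195 opposite-strand mESC tags and 10 in mOPCs but 107 and 1183 tags outside genes. Gm26760 (92344359 to 92378103), between Cntn1 and Pdzrn4, had 17.9, 21.4 and 21.2 CPM in mESCs and 1.82, 1.32 and 1.10 in mOPCs (log2 -3.90, edgeR adjusted p = 1.2e-30). Gm17546 (95824458 to 95830072), inside the bounds of Ano6, had 84, 36 and 39 tags in mESCs and none in mOPCs, at least 66.2-fold fewer.

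Zfp42-ps1 (93679160 to 93679649) lies to the right of Prickle1 and had 397, 135 and 200 tags near its 5′ end in mESCs and none in mOPCs. It is a processed pseudogene of Zfp42, a marker of mESCs. Within its annotated bounds the mESC libraries had only 0.0528, 0 and 0.0543 CPM, so nearly all of these tags lay outside them. Tags of near-identical copies can be assigned to either, and whether this happened here was not tested, so its values are uncertain.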
